A study of Mus musculus with 13 samples.

Results

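Liver given 16,16-dimethyl prostaglandin E2 (dmPGE2) without any injury was compared with saline liver across all genes of the deposited count table. The comparison rests on 6 of the 13 libraries of the series, 3 labelled dmPGE2 and 3 labelled saline controls. All came from wild-type C57 BL6 mice aged 8 weeks, with dmPGE2 injected intraperitoneally at 300 µg/kg. The other 7 libraries came from livers injured with D-galactosamine (500 mg/kg) and lipopolysaccharide (5 µg/kg), called GalN/LPS below. Of these, 3 had the injury only and 4 had dmPGE2 first, by 1 h, with collection at 6 h after the injury. The titles of all 13 libraries, saline and dmPGE2 alone included, also carry 6 h, but whether that counts from dmPGE2 in the uninjured livers is not stated. The labels do not tie each library to its own animal, so the p-values may measure technical spread only.

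Prostaglandin E2 acts through 4 cell-surface receptors, EP1 to EP4, encoded by Ptger1, Ptger2, Ptger3 and Ptger4. EP2 and EP4 raise cyclic AMP through the stimulatory G protein, EP3 mostly lowers it, and EP1 raises calcium. In hepatocytes cyclic AMP is best known as the second messenger of glucagon, which switches on genes of glucose production such as Pck1. In macrophages the same messenger dampens the making of tumour necrosis factor. The dimethyl form resists the dehydrogenase, encoded by Hpgd, that inactivates natural prostaglandin E2.

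No gene passed the test. Of 54532 genes in the table, 14280 had enough counts to be tested, and edgeR's quasi-likelihood test called 0 of them higher and 0 lower at an adjusted p under 0.05, a background of 0%. The lowest adjusted p was 0.0628. At an unadjusted p under 0.05 there were 1089 genes higher in dmPGE2 livers (7.63%) and 901 lower (6.31%). These shares are the background for every count of list genes at that threshold below. DESeq2 on the same libraries called 137 higher (1.06%) and 140 lower (1.09%) of the 12890 genes for which it gave an adjusted p. With library totals in place of TMM scaling, the unadjusted split moved to 1253 higher and 511 lower, and the median log2 fold change of all genes from 0.02 to 0.09. No overlap between the 3 dmPGE2 and 3 saline libraries was seen for 2044 genes with dmPGE2 above (14.3%) and 1717 with dmPGE2 below (12%). Every gene named below therefore failed the main test, and words such as higher or lower describe its values only.

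**Figure D1:**
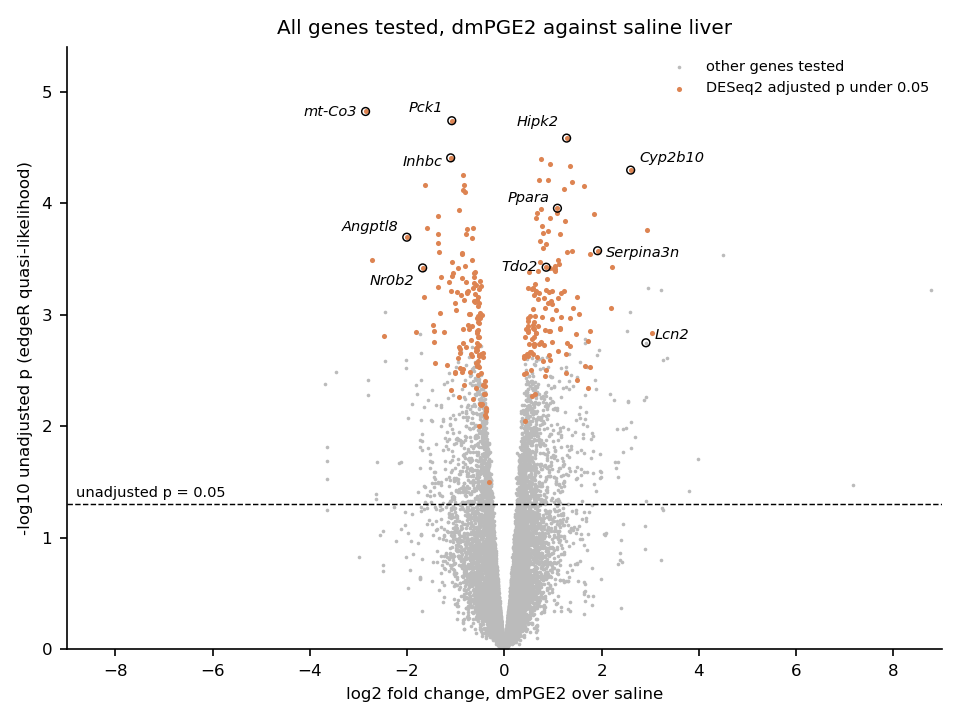
Each point is 1 of the 14280 genes tested, with the log2 fold change of dmPGE2 over saline on the x axis and -log10 of the unadjusted p of edgeR on the y axis. Orange points are the 277 genes that DESeq2 called, and circled genes are named in the text. No gene reached an adjusted p of 0.05 in edgeR, and Pck1 and mt-Co3 lay highest.

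The precision differed with expression level. The 95% interval of the fold change stayed within a 2-fold change either way for 9620 genes (67.4%) and within 4-fold for 13219 (92.6%). For genes between 10 and 100 CPM, that is, TMM-scaled read counts relative to library size, the 2-fold share was 94.0%, and for genes under 1 CPM it was 4.18%. For most scarce transcripts, the prostaglandin receptors Ptger2 and Ptger4 among them, the change could thus not be bounded within 2-fold at this depth.

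The libraries were of similar depth, with 17018104 to 18425824 counts in saline and 14829838 to 20777809 in dmPGE2. The first principal component of the 6 libraries held 36.2% of the variance and placed all 3 dmPGE2 libraries on one side, with saline 2 (-29.9) and dmPGE2 2 (27.4) at its ends. Mitochondrial transcripts took 3.94 to 7.46% of saline counts and 3.10 to 3.90% of dmPGE2 counts. Hepatocyte markers were abundant in every library, as the tissue label requires, with a summed level of 89620 to 104924 CPM in saline and 69830 to 77692 CPM in dmPGE2. In whole liver, fewer cells of a type and less RNA per cell cannot be told apart.

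Gene length moved with the treatment. Genes were ranked by genomic span and split into 5 equal groups. In the shortest group, 120 were higher and 376 lower at an unadjusted p under 0.05, against 357 higher and 60 lower in the longest group. The median log2 fold change went from -0.14 in the shortest group to 0.15 in the longest, and each dmPGE2 library lay below each saline library in the first and above it in the second. Saline 2 lay farthest out. The part of this trend in the results for single genes was not tested beyond removing it from the fit, after which edgeR again called 0 genes.

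**Figure D2:**
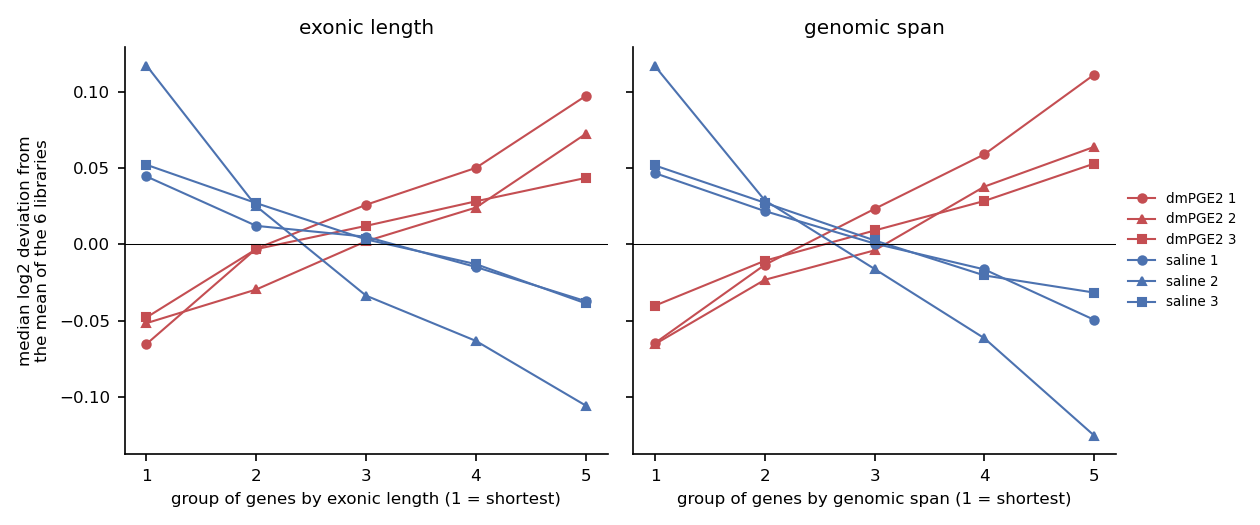
Genes were split into 5 equal groups by exonic length (left) or genomic span (right), from shortest to longest, and each line gives the median log2 deviation of 1 library from the mean of the 6. Saline libraries (blue) slope down and dmPGE2 libraries (red) slope up in both panels.

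The receptors were scarce. Ptger2, which encodes EP2, stood at 0.596, 0.548 and 0.817 CPM in saline 1, 2 and 3 and at 0.225, 0.464 and 0.295 CPM in dmPGE2 1, 2 and 3. All 3 dmPGE2 libraries were below all 3 saline libraries, with a log2 fold change of -1.03 ± 0.43 (standard error, as throughout for log2 values) and an adjusted p of 0.296. Ptger4, which encodes EP4, gave 0.734, 0 and 0.336 CPM in saline and 0.337, 0.116 and 0.253 CPM in dmPGE2, with overlapping groups, and it shares its position with Ttc33, which had more counts. Ptger1 and Ptger3 had too few counts to be tested, with 8 and 2 counts over the saline libraries and 1 and 3 over the dmPGE2 libraries.

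Enzymes of the prostaglandin pathway showed mostly small differences. Of 16 genes for synthesis, breakdown and transport, 1 was higher and 1 lower at an unadjusted p under 0.05. The higher one, Ptgr2, encodes a reductase that acts on the keto product of that dehydrogenase. It stood at 19.4, 17.3 and 20.7 CPM in saline and 33, 26.3 and 27.7 CPM in dmPGE2, without overlap (log2 fold change 0.60 ± 0.15, adjusted p = 0.0979). The lower one, Cbr1, a carbonyl reductase, had a log2 fold change of -0.62 ± 0.19, and its dmPGE2 libraries were all below the saline ones. Hpgd, at 49.7, 57.6 and 42.2 CPM in saline and 72.5, 58.6 and 71.8 CPM in dmPGE2, did not overlap either, with a log2 fold change of 0.44 ± 0.24 and a 95% interval of -0.07 to 0.95. Ptgs1, the constitutive cyclooxygenase, stood near 6 CPM in all libraries (0.05 ± 0.19), and Ptgs2, the inducible one, had counts in 1 saline and 1 dmPGE2 library only.

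Targets of cyclic AMP were more often lower than higher. Of 26 genes tested, 6 were lower and 1 higher at an unadjusted p under 0.05, against 6.31% and 7.63% of all genes. The list's median log2 fold change was -0.19, against 0.02 for all genes. Without saline 3 the list's median was 0.08.

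Pck1 (chr2:173153048-173159273 in the deposited table, GRCm38), the enzyme that commits carbon to glucose production, had the second smallest p-value of all genes. It stood at 1902, 2384 and 2975 CPM in saline and 1162, 1092 and 1181 CPM in dmPGE2. The dmPGE2 libraries were tightly grouped and all below the lowest saline library, with a log2 fold change of -1.08 ± 0.18 (95% interval -1.46 to -0.70, adjusted p = 0.0628 in edgeR and 3.15e-08 in DESeq2). Without saline 1, edgeR called it lower.

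Sik1, a kinase that cyclic AMP induces and that restrains its response, gave 13.5, 12.5 and 19.2 CPM in saline and 6.45, 7.43 and 7.85 CPM in dmPGE2. The groups did not overlap (log2 fold change -1.06 ± 0.24, adjusted p = 0.0832). Per1, a clock gene in the cyclic AMP list, was also lower in every dmPGE2 library, at 16.6, 13.3 and 22.6 CPM against 24.5, 24.9 and 23.6 CPM (-0.47 ± 0.20, adjusted p = 0.31). Crem, whose inducible product closes the cyclic AMP response, differed by 0.05 ± 0.23. Creb3l3, a hepatocyte transcription factor of fasting, was the one member higher at an unadjusted p under 0.05, with 361, 307 and 297 CPM in saline and 426, 406 and 395 CPM in dmPGE2 (0.35 ± 0.12, adjusted p = 0.226).

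Of 22 immediate early genes tested, 18 had negative values. At an unadjusted p under 0.05, 3 were lower and 0 higher, against 6.31% and 7.63% of all genes tested. The median log2 fold change of the list was -0.38, and -0.11 without saline 3. Egr1 and Fos, singled out after their values were seen, were highest in that library. Egr1 stood at 3.81, 2.14 and 76.8 CPM in saline and 2.21, 2.32 and 2.91 CPM in dmPGE2, so its log2 fold change of -3.47 ± 1.0 became -0.26 without saline 3. Fos had 0.504, 0.0498 and 3.79 CPM in saline and 0.487, 0.116 and 0.422 CPM in dmPGE2, and its sign turned without that library. Tat, an amino acid enzyme of fasting in the cyclic AMP list, was also highest in saline 3, at 641, 975 and 2071 CPM in saline against 493, 754 and 875 CPM in dmPGE2 (-0.80 ± 0.32), and without it the difference was -0.19.

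The windows below show cyclic AMP half-sites upstream of 3 of these genes, 1 each in Pck1 and Per1 and 2 in Fos. Only half-sites with 15 bases on each side inside the 250 bases before the start were printed. Any nearer to the edges or after the start are not shown. Nr4a1, Nr4a2 and Ppargc1a had such half-sites too, and their windows are not shown. Half-sites also lay in promoters of genes with higher values, Ppara (217 bases upstream) and Creb3l3. Tat had none in its promoter, and Sik1 and Crem had no promoter in the set searched. The half-site is TGACG on either strand, printed in capitals, and each window is given on the gene's own strand, from RefSeq on GRCm38.p6.
Pck1, chr2:173152968-173153002, plus strand: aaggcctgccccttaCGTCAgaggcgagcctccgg
Per1, chr11:69100005-69100039, plus strand: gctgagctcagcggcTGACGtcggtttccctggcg
Fos, chr12:85473746-85473780, plus strand: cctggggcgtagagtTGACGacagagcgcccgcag
Fos, chr12:85473809-85473843, plus strand: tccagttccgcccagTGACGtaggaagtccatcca
These windows end before the annotated start, the half-site being 85, 127, 124 and 61 bases upstream in that order.

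The half-site lay in 15 of 21 promoters of the cyclic AMP list (71.4%) and in 34.2% of the 10500 promoters of tested genes, counted from 250 bases before to 50 after the start. That list was made of cyclic AMP response genes, so its share says nothing about dmPGE2. Among genes at an unadjusted p under 0.05 the share with the half-site was 34.3% for those higher and 35.3% for those lower. In the smaller sets that DESeq2 called, it lay in 42 of 110 promoters of higher genes (38.2%) and in 27 of 96 of lower genes (28.1%). The full palindrome TGACGTCA lay in 3.40% of tested promoters, in 3.23% of the higher and in 3.63% of the lower set, and in 6 of the 110 and 1 of the 96 promoters of the DESeq2 sets (5.45% and 1.04%). None of these shares was tested. The E-box CACGTG lay in 11.6%, 10.6% and 12.3%, and the D-box, TTACGTAA or TTATGTAA, in 0.924%, 0.871% and 0.789% of tested promoters and of the sets higher and lower at an unadjusted p under 0.05. In the DESeq2 sets the E-box lay in 7.27% of higher and 11.5% of lower genes, and the D-box in 0% and 1.04%. The glucocorticoid response element was found in 2 tested promoters and in none of these sets. A match describes letters in the sequence and does not show binding.

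Genes of fat synthesis had negative values in 19 of 27 cases. In this list of fatty acid synthesis and desaturation, 7 were lower and 2 higher at an unadjusted p under 0.05. The shares over all genes tested were 6.31% and 7.63%. DESeq2 called 4 of the list lower, against 1.09% of all genes for which it gave an adjusted p. The median of the list was -0.23. Without saline 3 the median was -0.05.

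Srebf1, the transcription factor that drives fat synthesis under insulin, overlapped between groups because dmPGE2 3 exceeded saline 1, with 120, 175 and 368 CPM in saline and 92.7, 57.7 and 141 CPM in dmPGE2 (-1.18 ± 0.33). Without saline 3, the highest library, its log2 fold change was -0.59.

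Fads2, a desaturase of polyunsaturated fats, stood at 241, 227 and 341 CPM in saline and 178, 132 and 165 CPM in dmPGE2, without overlap (-0.77 ± 0.18, adjusted p = 0.0862). Elovl3, which lengthens fatty acids, gave 34.1, 62.8 and 46.6 CPM and 24, 25.1 and 31.2 CPM in the same order, again without overlap (-0.84 ± 0.20, adjusted p = 0.0891). Angptl8, a secreted inhibitor of lipoprotein lipase that feeding induces, was singled out after its values were seen. Its level was 25.8, 135 and 39.6 CPM in saline and 17.5, 14.5 and 17.8 CPM in dmPGE2, and the log2 fold change of -2.01 ± 0.42 did not pass the test (adjusted p = 0.0739). It was -0.97 without saline 2, while without saline 1 edgeR called it lower. Ppp1r3g, a subunit that directs glycogen synthesis, was at 1.1, 1.05 and 4.32 CPM in saline and 0.30, 0.232 and 0.591 CPM in dmPGE2 (-2.48 ± 0.65), with saline 3 the highest and -1.47 without it. Its list of glycogen enzymes and targeting subunits did not share that direction, with 12 of 20 values positive, 1 gene higher and 1 lower at an unadjusted p under 0.05, and a median of 0.03.

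Genes of glucose production lay on both sides. Of 23 genes in the list of gluconeogenesis and glucose handling, 4 were higher and 4 lower at an unadjusted p under 0.05. Fbp1, which removes a phosphate late in the pathway, stood at 904, 615 and 984 CPM in saline and 1247, 1211 and 1253 CPM in dmPGE2, without overlap (0.57 ± 0.18, adjusted p = 0.179). Slc37a4, which carries glucose 6-phosphate into the endoplasmic reticulum, gave 226, 199 and 205 CPM and 299, 249 and 332 CPM (0.48 ± 0.15, adjusted p = 0.18). Pck1 and these 2 genes thus lay on opposite sides of zero.

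**Figure D3:**
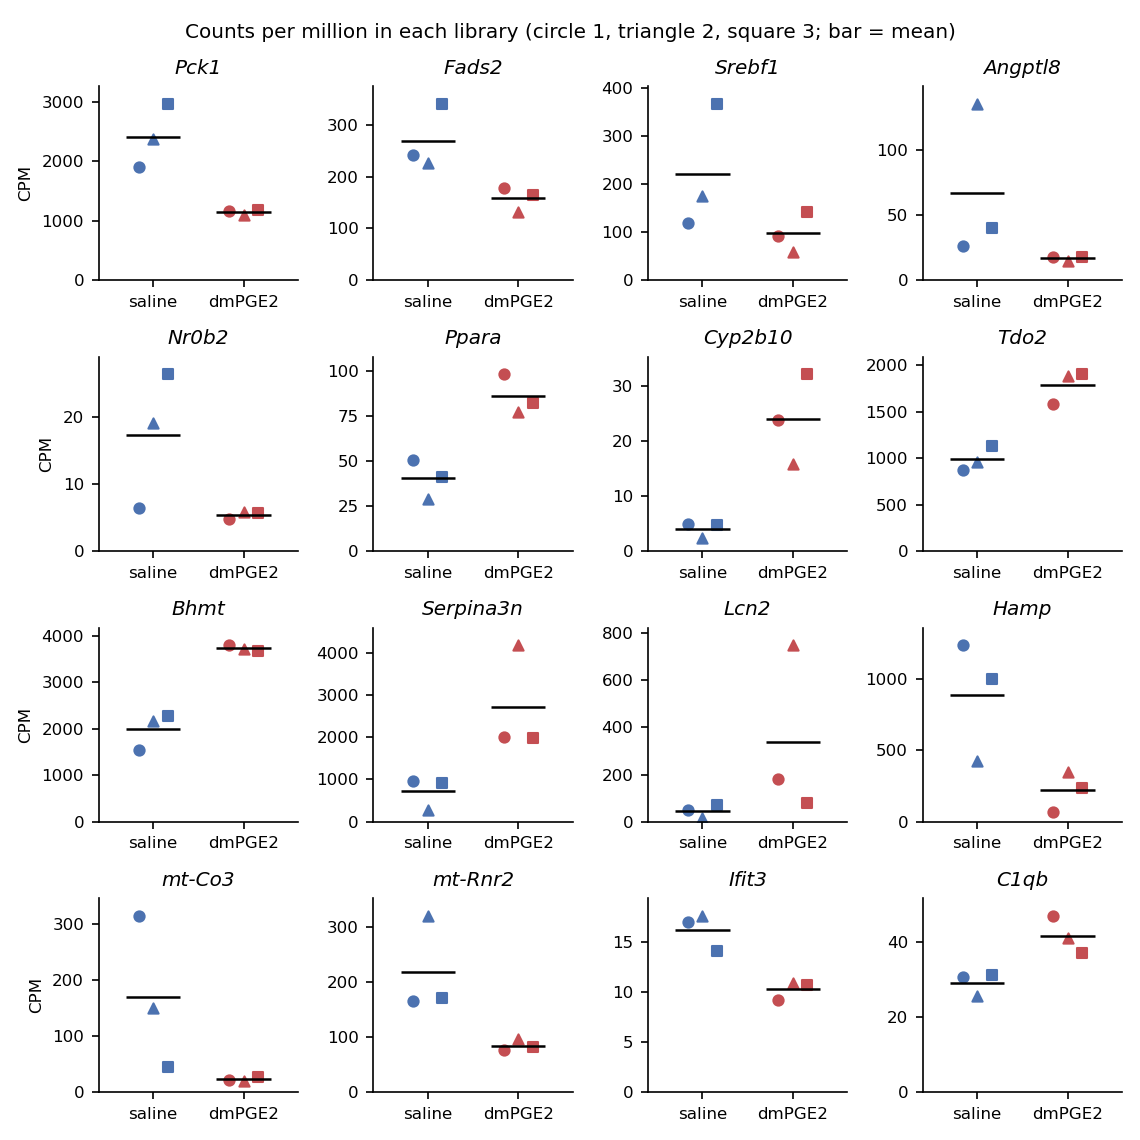
TMM-scaled CPM of 16 genes in each of the 3 saline (blue) and 3 dmPGE2 (red) libraries, with the replicate given by the symbol and the group mean by the bar. The dmPGE2 libraries of Pck1 lie between 1092 and 1181 CPM, below all saline libraries, while Srebf1 overlaps and Lcn2 rests largely on dmPGE2 2.

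Nuclear receptors and their targets lay on both sides of zero. Ppara, the fasting receptor for fatty acids, stood at 50.7, 29 and 41.3 CPM in saline and 98.2, 77.5 and 82.5 CPM in dmPGE2. The groups did not overlap, with a log2 fold change of 1.09 ± 0.21 (95% interval 0.64 to 1.55, adjusted p = 0.0716). Its target list of fatty acid oxidation and ketogenesis had a median of 0.01, with 5 of 38 genes higher and 2 lower at an unadjusted p under 0.05. Fabp1, a fatty acid carrier in that list, was lower, at 3873, 4525 and 2407 CPM in saline and 2091, 2025 and 2100 CPM in dmPGE2 (-0.80 ± 0.27, adjusted p = 0.207). Fgf21, a fasting hormone that this receptor induces, was scarce and lower in each dmPGE2 library, with 1.42, 1.49 and 0.576 CPM in saline and 0.262, 0.232 and 0.127 CPM in dmPGE2 (-2.45 ± 0.66).

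Nr0b2, a repressor of bile acid synthesis, stood at 6.42, 19.1 and 26.3 CPM in saline and 4.69, 5.8 and 5.7 CPM in dmPGE2 (-1.68 ± 0.37, adjusted p = 0.0832). Its groups did not overlap, although saline 1 lay close to the dmPGE2 libraries. Without saline 1, edgeR called it lower.

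Cyp2b10, a cytochrome P450 and the standard target of the xenobiotic receptor CAR, had one of the largest differences. It gave 4.86, 2.29 and 4.71 CPM in saline and 23.8, 15.9 and 32.2 CPM in dmPGE2, each dmPGE2 library above each saline library (2.6 ± 0.47, 95% interval 1.6 to 3.6, adjusted p = 0.0628). Sult1e1, the oestrogen sulphotransferase, was scarce but without overlap, at 0.229, 0.299 and 0.336 CPM in saline and 0.825, 2.03 and 1.27 CPM in dmPGE2 (2.21 ± 0.49, adjusted p = 0.0832). Nr1i2, which encodes the related receptor PXR, went the other way (-0.60 ± 0.18, adjusted p = 0.17). Cyp26a1, which clears retinoic acid, was lower too, with 3.9, 3.09 and 8.12 CPM in saline and 1.72, 0.813 and 1.6 CPM in dmPGE2 (-1.82 ± 0.47). Of 42 P450 and regulator genes, 2 were higher and 6 lower at an unadjusted p under 0.05.

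Several enzymes of amino acid breakdown had higher values. In that list 6 of 34 genes were higher and 1 lower at an unadjusted p under 0.05, against 7.63% and 6.31% of all genes. The list's median of 0.10 was -0.01 without saline 1. Tdo2, the first enzyme of tryptophan breakdown, stood at 868, 956 and 1136 CPM in saline and 1586, 1888 and 1904 CPM in dmPGE2 (0.86 ± 0.19, adjusted p = 0.0832). Bhmt, which remakes methionine with betaine, gave 1541, 2174 and 2270 CPM in saline and 3798, 3706 and 3682 CPM in dmPGE2 (0.90 ± 0.22, adjusted p = 0.0913). Cps1, the entry enzyme of the urea cycle, gave 2009, 1300 and 3194 CPM and 3453, 3919 and 4061 CPM (0.81 ± 0.28, adjusted p = 0.209). In all 3 the lowest dmPGE2 library was above the highest saline library.

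Acute-phase genes varied with single libraries. Of 26 genes, 5 were higher and 1 lower at an unadjusted p under 0.05, against 7.63% and 6.31% of all genes tested. The list's median of 0.28 was -0.01 without dmPGE2 2. Serpina3n, a secreted protease inhibitor, stood at 965, 273 and 923 CPM in saline and 2010, 4184 and 1976 CPM in dmPGE2, without overlap (1.92 ± 0.41, adjusted p = 0.0795). Its neighbour Serpina3m gave 221, 87.1 and 186 CPM and 392, 712 and 424 CPM (1.63 ± 0.31, adjusted p = 0.0628), but it overlaps Serpina3k, which had more counts, so its reads are uncertain. Lcn2, a siderophore-binding protein, gave 51, 14.1 and 69.2 CPM in saline and 181, 750 and 80.6 CPM in dmPGE2. Its log2 fold change of 2.91 ± 0.78 was 1.55 without dmPGE2 2.

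Hamp, the iron hormone hepcidin, was lower in every dmPGE2 library, with 1238, 428 and 998 CPM in saline and 70.9, 349 and 237 CPM in dmPGE2 (-2.02 ± 0.57, adjusted p = 0.143). Trf, the iron carrier transferrin, gave 1288, 1992 and 1576 CPM and 696, 1171 and 885 CPM (-0.82 ± 0.25, adjusted p = 0.17). Of 18 iron genes, 6 were lower and 0 higher at an unadjusted p under 0.05, against 6.31% and 7.63% of all genes tested. The median of the iron list was -0.05, with 8 positive values. Apoa1, the main protein of high-density lipoprotein, stood at 10619, 10965 and 11285 CPM in saline and 6952, 7161 and 7721 CPM in dmPGE2 (-0.59 ± 0.18, adjusted p = 0.172 in edgeR and 0.00134 in DESeq2). Alb, albumin itself, was lower in each dmPGE2 library by value (-0.43 ± 0.26), with an interval of -0.99 to 0.13.

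Mitochondrial transcripts had negative log2 fold changes in 14 of 15 cases. Of these genes, 10 were lower and 0 higher at an unadjusted p under 0.05, against 6.31% and 7.63% of all genes. The list's median log2 fold change was -0.79. Across the alternative analyses that median ranged from -1.04, without saline 3, to -0.48, without saline 2. Mitochondrial transcripts took 7.46% of the counts of saline 2, the highest share of the 6 libraries. mt-Co3, a subunit of cytochrome oxidase, had the smallest p-value of all genes, with 315, 150 and 45.7 CPM in saline and 22.8, 20.5 and 27.3 CPM in dmPGE2 (-2.85 ± 0.46, adjusted p = 0.0628). Its saline libraries differed widely. The value was -2.05 without saline 1, and without saline 3 edgeR called it lower. The ribosomal RNA mt-Rnr2 gave 165, 320 and 171 CPM in saline and 76.5, 95.9 and 81.3 CPM in dmPGE2 (-1.37 ± 0.29, adjusted p = 0.0772), saline 2 being the highest. mt-Nd1, a subunit of the first respiratory complex, was lower by -0.92 ± 0.29. The nuclear genome holds copies of mitochondrial sequence, so how the counting shared such reads makes these levels uncertain.

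Cytosolic ribosomal protein genes had small negative values in 27 of 29 cases. Among them, 11 were lower and 0 higher at an unadjusted p under 0.05, and the groups did not overlap in 20 of them, all with dmPGE2 below, against 12% of all genes tested. The median of -0.24 became -0.16 and -0.14 with the trend on exonic length and on genomic span removed. Rpl14, of the large subunit, stood at 133, 177 and 143 CPM in saline and 97.5, 102 and 107 CPM in dmPGE2 (-0.57 ± 0.14, adjusted p = 0.0891). Rpl11, of the same subunit, gave 283, 304 and 295 CPM and 216, 219 and 239 CPM (-0.39 ± 0.13).

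Protein folding and stress genes split. Of 25 genes for endoplasmic reticulum chaperones and the unfolded protein response, 24 had a positive log2 fold change, with a median of 0.34, and dmPGE2 lay above saline without overlap in 10 of them, against 14.3% of all genes tested. At an unadjusted p under 0.05, 3 were higher and 1 lower. Sel1l, part of the machinery that removes misfolded proteins, stood at 98.5, 83.6 and 88.4 CPM in saline and 123, 126 and 112 CPM in dmPGE2 (0.41 ± 0.13, adjusted p = 0.177). Pdia4, a disulphide isomerase, gave 0.50 ± 0.19 and Hsp90b1, a chaperone, 0.52 ± 0.24. Herpud1, which aids the removal of misfolded proteins, was the member with a negative value, at 278, 283 and 330 CPM in saline and 215, 168 and 240 CPM in dmPGE2 (-0.52 ± 0.16).

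In the list of ATF4 and the integrated stress response, 5 of 21 genes were lower and 0 higher at an unadjusted p under 0.05. The shares over all genes tested were 6.31% and 7.63%, and the list's median was -0.34. Atf4, the central transcription factor, stood at 89.4, 96.4 and 86.8 CPM in saline and 68.6, 54 and 59.5 CPM in dmPGE2 (-0.58 ± 0.17, adjusted p = 0.166). Atf5, a related factor, gave 149, 129 and 138 CPM and 104, 89.9 and 100 CPM, without overlap (-0.50 ± 0.12, adjusted p = 0.103).

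**Figure D4:**
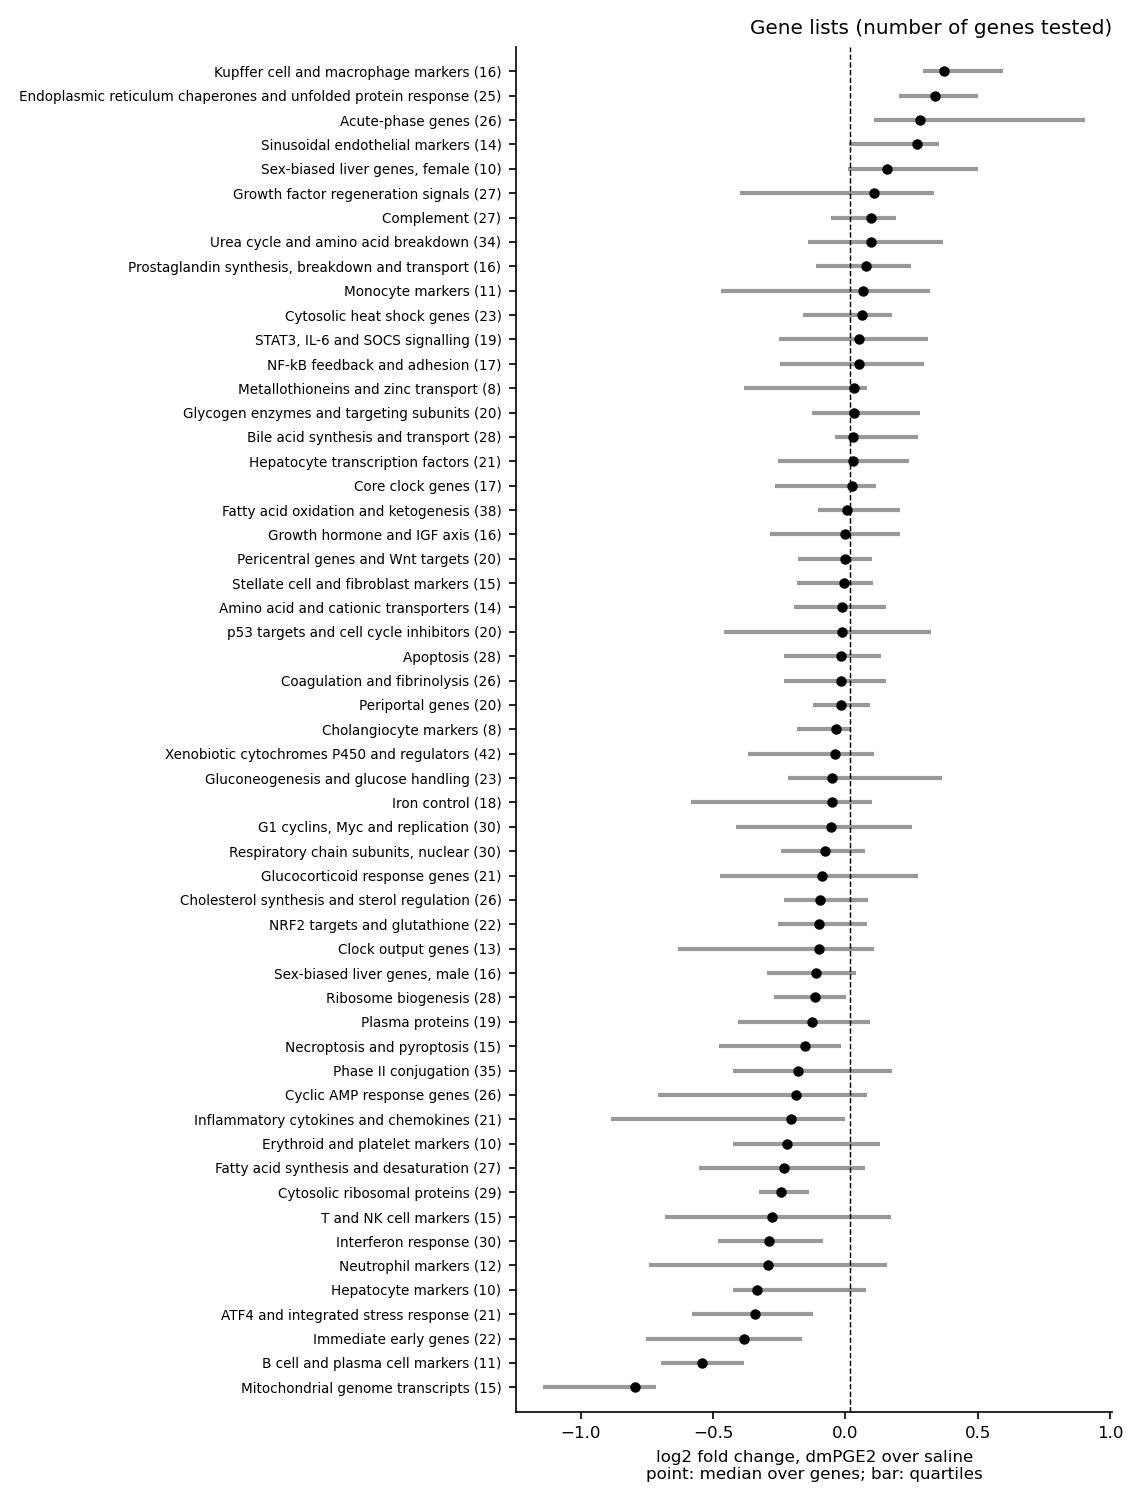
Each row is a gene list with the number of its genes tested in brackets. The point gives the median log2 fold change of dmPGE2 over saline, the bar the quartiles over genes, and the dashed line the median of all genes tested, 0.02. Mitochondrial transcripts lie lowest, at -0.79, and Kupffer cell markers highest, at 0.37.

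The 21 cytokine and chemokine genes tested summed to 42.2 to 56.6 CPM in saline and 37.5 to 47.1 CPM in dmPGE2. The values were negative for 16 of them, with a median log2 fold change of -0.20. Tnf, Il1b and Il6 were scarce. Tnf stood at 0.183, 0.0996 and 0.24 CPM in saline and 0.187, 0 and 0.127 CPM in dmPGE2 (-0.56 ± 0.78, interval -2.21 to 1.1). Il1b was at 1.24, 0.498 and 1.01 CPM in saline and 1.8, 1.33 and 1.39 CPM in dmPGE2 (0.72 ± 0.33, adjusted p = 0.346), and Il6 had a count of 0 in all 6 libraries. In the list 2 were higher and 1 lower at an unadjusted p under 0.05. The lower one, Ccl5, which draws T cells, gave 1.33, 2.24 and 1.78 CPM in saline and 1.05, 0.929 and 0.886 CPM in dmPGE2 (-0.89 ± 0.24).

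Interferon-response genes leaned lower. At an unadjusted p under 0.05, 7 of 30 were lower and 0 higher, against 6.31% and 7.63% of all genes tested. In the list 25 had negative values, and the median was -0.29. Ifit3, an antiviral protein, stood at 17, 17.6 and 14.1 CPM in saline and 9.22, 10.9 and 10.8 CPM in dmPGE2 (-0.66 ± 0.20, adjusted p = 0.17). Igtp, an immunity GTPase, gave -0.69 ± 0.18, but it overlaps Irgm2, which had more counts. In both, each dmPGE2 library was below each saline library.

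Kupffer cell and macrophage markers had positive values in 15 of 16 cases. Of these genes, 6 were higher and 0 lower at an unadjusted p under 0.05, against 7.63% and 6.31% of all genes. The list's median was 0.37, with a summed level of 278 to 368 CPM in saline and 359 to 460 CPM in dmPGE2. C1qb, a complement component made by macrophages, stood at 30.7, 25.7 and 31.2 CPM in saline and 47.1, 41.1 and 37.1 CPM in dmPGE2 (0.52 ± 0.20, adjusted p = 0.257). Cd68, a lysosomal protein, gave 3.53, 3.59 and 4.23 CPM and 6.82, 5.17 and 5.36 CPM (0.62 ± 0.24). Adgre1, which encodes F4/80, overlapped between groups (0.68 ± 0.28). Sinusoidal endothelial markers had a median of 0.27, with Dnase1l3 at 0.51 ± 0.20 and Clec4g at 0.39 ± 0.16. Of the 14 endothelial genes, 10 had positive and 4 negative values, and 2 were higher and 0 lower at an unadjusted p under 0.05. Without dmPGE2 1 the endothelial median was 0.09. B cell markers had a median of -0.54, 9 of 11 had negative values and 3 were lower at an unadjusted p under 0.05. Neutrophil markers summed to 5.18 to 18.5 CPM in saline and 5.95 to 9.93 CPM in dmPGE2. The part of cell composition in the other results was not tested.

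Outside these lists, several genes had small p-values and no overlap between groups. Hipk2, a nuclear kinase, stood at 5.82, 4.68 and 5.67 CPM in saline and 17.5, 10.04 and 11.6 CPM in dmPGE2 (1.28 ± 0.22, adjusted p = 0.0628). Pik3c2a, a phosphoinositide kinase, gave 10.9, 9.32 and 13.7 CPM and 23.1, 21.8 and 19.8 CPM (0.93 ± 0.17). Both lie in the longest of the 5 groups by genomic span, 62438 bases or more, where higher values were the more frequent.

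Lower by value were Inhbc, a liver-made subunit of activin C, at 56.4, 89.4 and 50.4 CPM in saline and 34, 30.1 and 27.1 CPM in dmPGE2 (-1.1 ± 0.20, adjusted p = 0.0628), and Cirbp, a cold-inducible RNA-binding protein, at 12, 13 and 12.2 CPM and 5.81, 6.67 and 8.02 CPM (-0.86 ± 0.16). Hsd3b2, a steroid dehydrogenase, gave 33, 56.2 and 39 CPM and 18.9, 13.7 and 17 CPM (-1.36 ± 0.27). Clock, which encodes the partner of BMAL1 in the circadian clock, was higher at 23.5, 31.1 and 24.3 CPM against 14.4, 14.3 and 16.9 CPM (0.79 ± 0.16, adjusted p = 0.0716), while Dbp differed by -0.10 ± 0.18. Arntl, at -0.11 ± 0.46, was poorly bounded, with values from -0.54 to 0.34 when 1 library was left out. Cdkn1a, the cell cycle inhibitor p21, was at 0.871, 0.747 and 1.2 CPM in saline and 1.95, 3.54 and 1.94 CPM in dmPGE2 (1.36 ± 0.37, adjusted p = 0.128). Ccnd1, cyclin D1, was lower by value (-0.92 ± 0.32), with dmPGE2 1 inside the saline range. Fkbp5 and Klf9, targets of glucocorticoids, gave 0.43 ± 0.18 and 0.92 ± 0.25, while Mt1, a metallothionein singled out after its values were seen, gave 0.02 ± 0.37. Of 21 glucocorticoid response genes tested, 5 were higher and 4 lower at an unadjusted p under 0.05. In that list 10 values were positive and 11 negative, with a median of -0.09.

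The effect of dmPGE2 was then set against its effect in injured livers, using pretreated and GalN/LPS libraries, which share no sample with this comparison. The interaction, the log2 effect in injured less that in uninjured livers, passed at an adjusted p under 0.05 for 4999 genes (35.0%), 2202 positive and 2797 negative. With library totals the interaction passed for 182 positive and 5209 negative genes, since the scaling moved the median interaction from -0.11 to -0.69, so the direction of small interactions depends on the scaling. Whether the interval from dmPGE2 to collection was the same in uninjured and injured livers is not stated.

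Several genes had opposite signs in the uninjured and injured livers. Pck1 was -1.08 ± 0.18 in uninjured and 1.22 ± 0.17 in injured livers, an interaction of 2.3 (adjusted p = 8.68e-05). Apoa1 was -0.59 ± 0.18 and 0.60 ± 0.17 (interaction 1.19, adjusted p = 0.00317). Macrophage and endothelial markers ran the other way. Adgre1 was 0.68 ± 0.28 in uninjured and -1.71 ± 0.24 in injured livers (interaction -2.39, adjusted p = 0.000566), and Dnase1l3 was 0.51 ± 0.20 and -2.0 ± 0.18 (interaction -2.51, adjusted p = 8.68e-05). These 4 interactions passed in all 17 alternative analyses. Many named genes were picked for a small p-value in uninjured livers, and the interaction contains that difference with its sign reversed. The interactions are therefore not independent of how the genes were picked.

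For other genes the interaction did not pass. Cyp2b10 was 2.6 ± 0.47 in uninjured and 2.39 ± 0.44 in injured livers, with an interaction of -0.21 ± 0.61. Tdo2 was 0.86 ± 0.19 and 1.08 ± 0.18 (interaction 0.22 ± 0.26), and Serpina3n 1.92 ± 0.41 and 2.42 ± 0.41 (0.51 ± 0.55). That these miss the threshold does not show equal effects. Of the 137 genes DESeq2 called higher in uninjured livers, 100 (73.0%) had a positive value in injured livers, and of the 140 called lower, 92 (65.7%) had one too, against 46.6% of all genes tested. In edgeR's larger sets at an unadjusted p under 0.05, that share was 53.4% of the 1089 higher and 56.0% of the 901 lower genes.

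**Figure D5:**
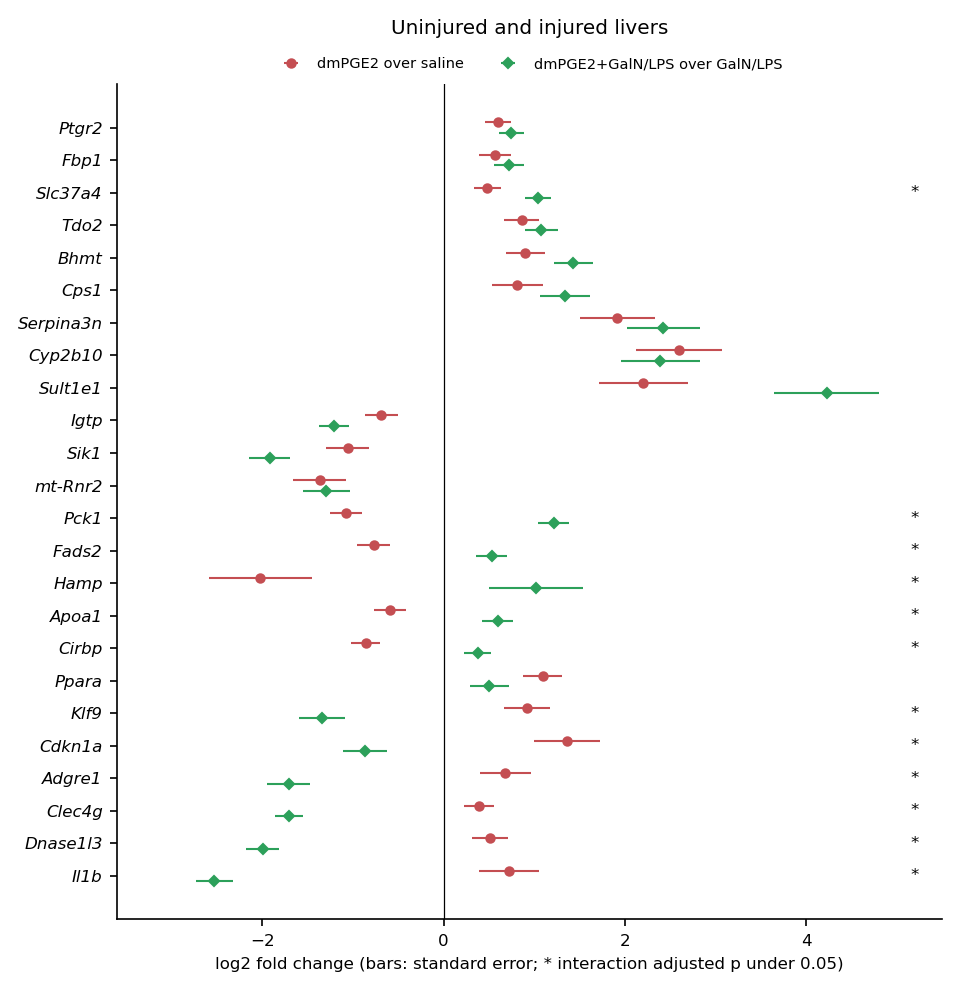
Log2 fold changes of 24 genes for dmPGE2 over saline (red circles) and for pretreated over GalN/LPS livers (green diamonds), with standard errors as bars and a star where the interaction passed. The star of Slc37a4 was lost with library totals. Genes from Ptgr2 to mt-Rnr2 and Ppara lie on the same side of zero in both, and the other genes lie on opposite sides.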

How the data were processed

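RNA sequencing libraries of whole liver were made with the NEBNext Ultra kit from 1 µg of total RNA, per the labels' protocols. HISAT2 and GRCm38/mm10 are named in the submitters' processing notes. The counter and annotation release were, like the strand setting, not given in the sources used here. The authors deposited raw counts per gene, checked to be whole numbers, and FPKM of the same libraries. The members, gene lists and tests were chosen with earlier results of these data known.

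All 13 libraries were fitted together on the counts with edgeR 4.0.16 in R 4.3.3 (TMM scaling, filter by group, group as the only term, quasi-likelihood F test, two-sided, Benjamini-Hochberg adjustment at 0.05). The replicate number was no term. Standard errors and 95% intervals came from the log2 fold change and F. The alternatives used DESeq2 1.42.0, limma 3.58.1 on log2 of the deposited FPKM plus 1 or 0.1 (FPKM of at least 1 in 3 libraries), other scalings, no filter, a replicate block and leaving out each library. The code was tested on simulated data.

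Gene lists numbered 58, with 1084 distinct genes, of which 1032 were tested. The rule for named genes took the 15 largest passing changes each way (0 genes), the 4 smallest adjusted p-values per list, and a fixed set of receptors, clock, cytokine and cyclic AMP genes. The 20 smallest p-values and Angptl8, Mt1, Egr1 and Fos were added after the data were seen, and the genes printed are a selection of all these, some genes not being reported here. Of 226 named genes 49 overlap another gene by position. RefSeq promoters (GRCm38.p6) were matched by symbol for 10500 of the tested genes, and the half-site search was added after the data were seen. The columns named ALF were taken as GalN/LPS. Where the series text names AILI mice, the sample labels name GalN/LPS, which was used.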

Additional observations from a re-analysis of the deposited data

Results flagged for a closer look

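The effect of dmPGE2 differed between injured and uninjured livers, by edgeR's test of the interaction at an adjusted p under 0.05, for 42 of the genes followed through the alternative analyses. Over all 14280 genes tested, 4999 (35.0%) passed the same test. The values below are the interaction in log2 fold change, injured less uninjured. Many of the 42 genes were picked for a small p-value in uninjured livers, whose difference enters the interaction with its sign reversed. Their interactions are therefore not independent of how they were picked, and their number cannot be set against the 35.0%. Among genes of glucose, fat and amino acid metabolism the value was positive for Pck1 (2.3), Tat (2.58), Ppp1r3g (4.78), Angptl8 (1.98), Fads2 (1.3), Elovl3 (1.26), Slc37a4 (0.56) and Fabp1 (1.24). For liver receptors and detoxifying or steroid enzymes it was positive as well, for Nr0b2 (1.81), Nr1i2 (1.18), Cyp26a1 (3.0), Cbr1 (1.13) and Hsd3b2 (2.05). Secreted and iron-linked liver products gave positive values for Hamp (3.04), Trf (1.24), Alb (1.15), Apoa1 (1.19) and Inhbc (1.2), and a negative one for Lcn2 (-2.71). Mitochondrial, ribosomal and stress genes gave positive values for mt-Co3 (2.33), Rpl14 (0.91), Rpl11 (0.73), Atf5 (0.60), Herpud1 (0.91), Mt1 (2.0) and Cirbp (1.23). Naa10 (1.2), which belongs to none of these groups, was positive too. Macrophage, endothelial and inflammatory genes gave negative values for Adgre1 (-2.39), Cd68 (-1.63), C1qb (-1.3), Dnase1l3 (-2.51), Clec4g (-2.1), Il1b (-3.25) and Nfkbiz (-1.51). Other negative values were those of Hipk2 (-1.5), Pik3c2a (-0.89), Zfp871 (-1.23), Serinc3 (-0.64), Cdkn1a (-2.23), Mki67 (-1.45), Klf9 (-2.27) and Creb3l3 (-0.46). Of these 42 interactions 25 passed in all 17 alternative analyses. With library totals as the scaling 14 no longer passed, those of Cbr1, Angptl8, Elovl3, Slc37a4, Fabp1, Nr0b2, Nr1i2, Trf, Alb, Inhbc, Atf5, Rpl14, Rpl11 and Herpud1, and the value of Slc37a4 turned to -0.018. Leaving out 1 of the 13 libraries ended the call of Creb3l3 in 12 cases, Slc37a4 in 11, Lcn2 in 9, Mki67 in 8, Nr0b2 and Alb in 5 each, and Fabp1 in 2 (saline 2 and GalN/LPS 3). With the replicate number as a block 9 no longer passed, these 7 and those of Angptl8 and Atf5. DESeq2 did not call Lcn2, and bias-adjusted quasi-dispersions did not call Alb.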

How the results depend on the processing

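The count of 0 genes called each way held with DESeq2 size factors in edgeR, library totals, the 6 libraries alone, either length trend removed and, with bias-adjusted quasi-dispersions (chosen after seeing the data, as were the length trends), the same filter. Genes called higher and lower were 137 and 140 with DESeq2, and 1 and 0 with limma on log2(FPKM + 1). Without a filter they were 290 and 171 in edgeR, 89 and 51 with bias-adjusted quasi-dispersions, and 7 and 3 with limma. In that unfiltered edgeR fit of 26810 genes the estimated prior degrees of freedom were infinite, against 6.80 with the filter, so no gene kept a spread of its own. Leaving out 1 library gave 0 to 1 genes higher and 0 to 3 lower. The counts at an unadjusted p under 0.05 then ranged from 649 to 1070 higher and 593 to 833 lower, the lowest of both without saline 2. Genes lower at an unadjusted p under 0.05 were 511 with library totals and 1376 with the 6 libraries alone.

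Saline and dmPGE2 libraries of the same number deviated together only weakly (correlations of 0.0873, 0.0354 and 0.0329), though each library correlated best with its own number, as a hint from the data and not the design. With the replicate number as a block, edgeR called 0 genes each way in the fit of 13 libraries, and 14 higher and 15 lower in the 6 libraries alone, where 1421 were lower at an unadjusted p under 0.05.

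Interactions called positive and negative were 182 and 5209 with library totals, and 1370 to 2705 and 2039 to 3011 when 1 library was left out, the lowest without GalN/LPS 3. The log2 fold change turned sign for 7 of the genes followed when 1 library was left out, with ranges of -1.1 to 0.52 for Ptger4, -2.50 to 1.65 for Ptgs2, -0.054 to 0.14 for Crem, -2.52 to 0.35 for Fos, -0.26 to 0.022 for Dbp, -0.54 to 0.34 for Arntl and -0.37 to 0.54 for Mt1. The library left out where the sign turned was saline 1 for Ptger4 and Crem, saline 2 for Dbp and Mt1, saline 3 for Ptgs2, Fos and Arntl, and dmPGE2 2 for Crem, Dbp, Arntl and Mt1. With the trend on exonic length or genomic span removed, Crem was at -0.012 or -0.061. The interaction of Slc37a4 was -0.018 with library totals. The causes of these shifts were not tested. At this depth 4.18% of genes under 1 CPM had a 95% interval within 2-fold.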
